A study of Sus scrofa with 14 samples.

Results

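The 8 genes described here carry out or control de novo fatty acid synthesis: ACLY, ACSS2, ACACA, FASN, ELOVL6, SCD, SREBF1 and THRSP. They were chosen by name, and all 8 were found with 1 gene identifier each among the 30071 identifiers of all 14 count tables. Messenger RNA was counted in pig (Sus scrofa) mammary gland by single-nucleus RNA sequencing of 10 sows, with 2 sows at each of day 90 of gestation (G90), day 0 (L0) and day 20 (L20) of lactation, and 2 days (PI2) and 7 days (PI7) after natural involution began. All were multiparous sows in their second breeding cycle, fed normal diets, and the sources used here do not give their age. The gland pieces came from a single region of the right side. The 2 sections (G90 and PI2) and the 2 milk samples (L0 colostrum and L20 mature milk) are 1 library per stage, so they carry no replicate check. The stage of each milk sample was taken from its source and time labels, which give the same stage; the title of the L0 milk carries the letter that glands of G90 carry. The glands were therefore compared over sows, and the sections and the milk were described.

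Fatty acids are built in the cytosol from acetyl-CoA. ACLY makes acetyl-CoA from citrate and ACSS2 makes it from acetate; ACACA turns it into malonyl-CoA, the committed step, and FASN joins these units into palmitate. ELOVL6 lengthens palmitate to stearate, SCD puts in the double bond that gives oleate, SREBF1 is a transcription factor that activates genes of this pathway, and THRSP is a small protein associated with lipogenesis that is abundant in fat and lactating mammary gland. Both alveolar epithelium, which makes milk fat, and adipocytes, which store fat, use the pathway, which is why the 2 kinds of cell were compared.

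The genes lie on chromosomes 12 (ACACA, FASN, ACLY and SREBF1), 14 (SCD), 8 (ELOVL6), 9 (THRSP) and 17 (ACSS2) of Sscrofa11.1. The 250 bases before the start of the gene are printed in RefSeq's Sscrofa11.1 sequence for the 3 genes that were higher in adipocyte than in epithelial nuclei, and for FASN, which was not, so that the promoters of both patterns can be read side by side. Capitals mark a match to the CCAAT box (CCAAT) or the GC box (GGGCGG) on either strand.
THRSP, chr9:12479663-12479912, plus strand: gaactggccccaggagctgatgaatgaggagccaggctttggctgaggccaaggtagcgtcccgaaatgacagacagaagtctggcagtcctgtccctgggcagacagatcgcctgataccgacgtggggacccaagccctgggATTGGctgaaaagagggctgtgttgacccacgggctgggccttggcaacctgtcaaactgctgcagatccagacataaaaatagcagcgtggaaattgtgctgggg
ELOVL6, chr8:112038420-112038669, plus strand: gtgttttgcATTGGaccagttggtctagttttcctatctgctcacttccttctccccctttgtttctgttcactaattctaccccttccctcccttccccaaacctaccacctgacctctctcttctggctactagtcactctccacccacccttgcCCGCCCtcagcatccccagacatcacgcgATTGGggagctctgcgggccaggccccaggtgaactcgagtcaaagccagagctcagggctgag
SCD, chr14:111461310-111461559, plus strand: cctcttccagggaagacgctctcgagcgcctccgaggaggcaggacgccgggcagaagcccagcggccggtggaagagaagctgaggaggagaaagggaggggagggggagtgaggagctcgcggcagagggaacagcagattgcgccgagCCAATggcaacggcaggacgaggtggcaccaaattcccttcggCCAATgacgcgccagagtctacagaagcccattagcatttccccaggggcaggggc
FASN, chr12:922155-922404, plus strand: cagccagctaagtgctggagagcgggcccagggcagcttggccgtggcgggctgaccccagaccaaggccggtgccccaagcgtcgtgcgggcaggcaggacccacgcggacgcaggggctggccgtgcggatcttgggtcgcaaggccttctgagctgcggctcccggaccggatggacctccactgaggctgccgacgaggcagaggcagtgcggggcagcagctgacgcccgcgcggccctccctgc
All 8 genes were found in the RefSeq annotation. CCAAT occurred in the windows of SCD and ELOVL6 (2 matches each), ACLY (2 matches) and THRSP (1 match, 102 bases before the start), and 31.9% of 19556 promoter windows of the same length held it. The FASN window held none of the 5 motifs searched. The other 3 motifs, the SREBP site TCACNCCAC (0.803% of all windows), the E-box CACGTG (6.39%) and the TATA box TATAAA (9.77%), matched in none of the 8 windows. The GC box matched in ACACA, ACLY, ELOVL6, SREBF1 and ACSS2 and in 45.9% of all windows. These matches describe letters in a short window and say nothing of binding.

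Each gland held 18962138 to 53165191 UMIs (unique molecular identifiers, 1 per captured RNA molecule). Of 126833 nuclei kept, 72018 (56.8%) were gated as luminal epithelial and 659 (0.52%) as adipocyte, where a gate needs a UMI of at least 2 markers of a class and of more markers of it than of any other. The gate requires its markers, so their level describes it and does not test it. Summed over glands, adipocyte nuclei held ADIPOQ and PLIN1, defining markers, at a high level (ADIPOQ 2311 CPM, the UMIs of a gene in 1000000 UMIs of the class, against 2.56 CPM in luminal nuclei; PLIN1 639 against 2.78 CPM) and the epithelial ones below their luminal level (ELF5 28.6 CPM against 994 CPM; EPCAM 18.8 against 214 CPM). These sums rest mostly on L20 gland 2; in the other 7 tested glands ADIPOQ ran from 1259 to 4760 CPM. Epithelial RNA was less low there: ELF5 ran from 0 to 263 CPM, EPCAM from 0 to 201 CPM (81.1 CPM summed), KRT7 from 0 to 210 CPM (244 CPM in luminal nuclei) and CLDN4 from 0 to 503 CPM (167 CPM in luminal nuclei). The gate was thin: 10 to 37 nuclei per gland in 7 glands, 526 in L20 gland 2, and 4 and 2 in the L0 glands, which were left out of every test on adipocytes. L20 gland 2 stood apart from the other 9 glands, with 9.61% luminal and 3.47% adipocyte nuclei against at least 29.3% and at most 0.225%, so values are also given without it. Milk protein RNA in adipocyte nuclei, read against luminal nuclei of the same gland, amounted to a free RNA share of 0 to 19.1% in 8 glands, 49.7% in L0 gland 2 and 89.6% in PI2 gland 2, where 10 of the 15 milk protein UMIs lay in 1 of 10 nuclei and the share was 31.9% without that nucleus. Library pairs among glands and milk shared between 0.55% and 1.52% of the barcodes of the smaller one.

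The 8 genes differed in which nuclei held their UMIs. Luminal nuclei gave 67.6% of all UMIs of the 10 glands, but 89.6% of those of SREBF1, 88.5% of FASN, 85% of ACSS2, 81.6% of ACLY and 78.5% of ACACA. For SCD (64.8%), ELOVL6 (63.1%) and THRSP (39.6%) the luminal share lay below that of all genes. Adipocyte nuclei, which gave 0.822% of all UMIs, gave 22.4% of the THRSP UMIs, 6.25% of ELOVL6, 3.64% of SCD and 1.4% of ACACA. These shares rest largely on L20 gland 2, which gave 2123909 of the 2450833 UMIs of adipocyte nuclei, 128 of the 198 THRSP UMIs there, 1994 of 2466 of ELOVL6, 199 of 411 of SCD and 929 of 1292 of ACACA. Without that gland adipocyte nuclei gave 0.126% of all UMIs, 11.4% of those of THRSP, 1.47% of ELOVL6, 2.22% of SCD and 0.442% of ACACA. These sums mix the number of nuclei of a class with the RNA in each, which cannot be told apart in them.

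Between classes, the level of each gene was taken as CPM of the summed nuclei of a class in a sow. Adipocyte nuclei had the highest mean CPM for all 8 genes among the classes with at least 8 sows, but for 3 of them the order changed with 1 gland left out. Each mean takes all sows of its class, so luminal means include the L0 glands and adipocyte means do not. Without PI2 gland 2, where ACLY was at 738 CPM from 12 UMIs, the adipocyte mean of ACLY fell from 182 to 103 CPM and luminal nuclei had the highest mean. SREBF1 without PI2 gland 1 (165 CPM against 168 CPM in luminal nuclei) and ACSS2 without PI7 gland 2 (282 against 285 CPM) were close to level. On a log scale the luminal mean of ACLY was higher with all glands, and that of ACSS2 was level. Luminal ACSS2 was highest in the L0 glands, so neither order of ACSS2 is one over the same sows. ACACA was at 898 ± 395 CPM in adipocyte nuclei (SD, n = 8), 319 ± 128 CPM in luminal nuclei (SD, n = 10) and 146 ± 66.9 CPM in T or NK lymphocytes (SD, n = 10), which serve here as a class that should hold little of the pathway. FASN was at 700 ± 602, 393 ± 236 and 123 ± 76.8 CPM in the same order, so its adipocyte and luminal levels overlapped widely. Luminal nuclei lay above T or NK lymphocytes in 10 of 10 sows for ACACA and FASN and in 9 of 10 for SREBF1 and ACSS2. ELOVL6 and THRSP did not follow this order: T or NK lymphocytes had 223 ± 49.5 CPM of ELOVL6 against 130 ± 33.9 CPM in luminal nuclei and were the higher class in 9 of 10 sows. THRSP was at 1.56 ± 0.572 CPM in luminal nuclei and 2.81 ± 3.67 CPM in T or NK lymphocytes, so luminal nuclei were not above that class. The T or NK level of THRSP rests on few UMIs, such as 4 in G90 gland 1 and 0 in G90 gland 2, and sets no background for luminal nuclei. For ACLY, T or NK lymphocytes were at 106 and 120 CPM in the L0 glands (13 and 12 UMIs), against 87.2 and 87.1 CPM over all nuclei there. At G90 they were at 96.5 and 102 CPM, against 110 and 252 CPM over all nuclei. SCD in macrophages, 72.0 ± 58.3 CPM (SD, n = 10), was above that of luminal nuclei (32.3 ± 12.9 CPM), with 143 and 190 CPM in the PI7 glands and 12.8 to 105 CPM in the other 8.

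**Figure D1:**
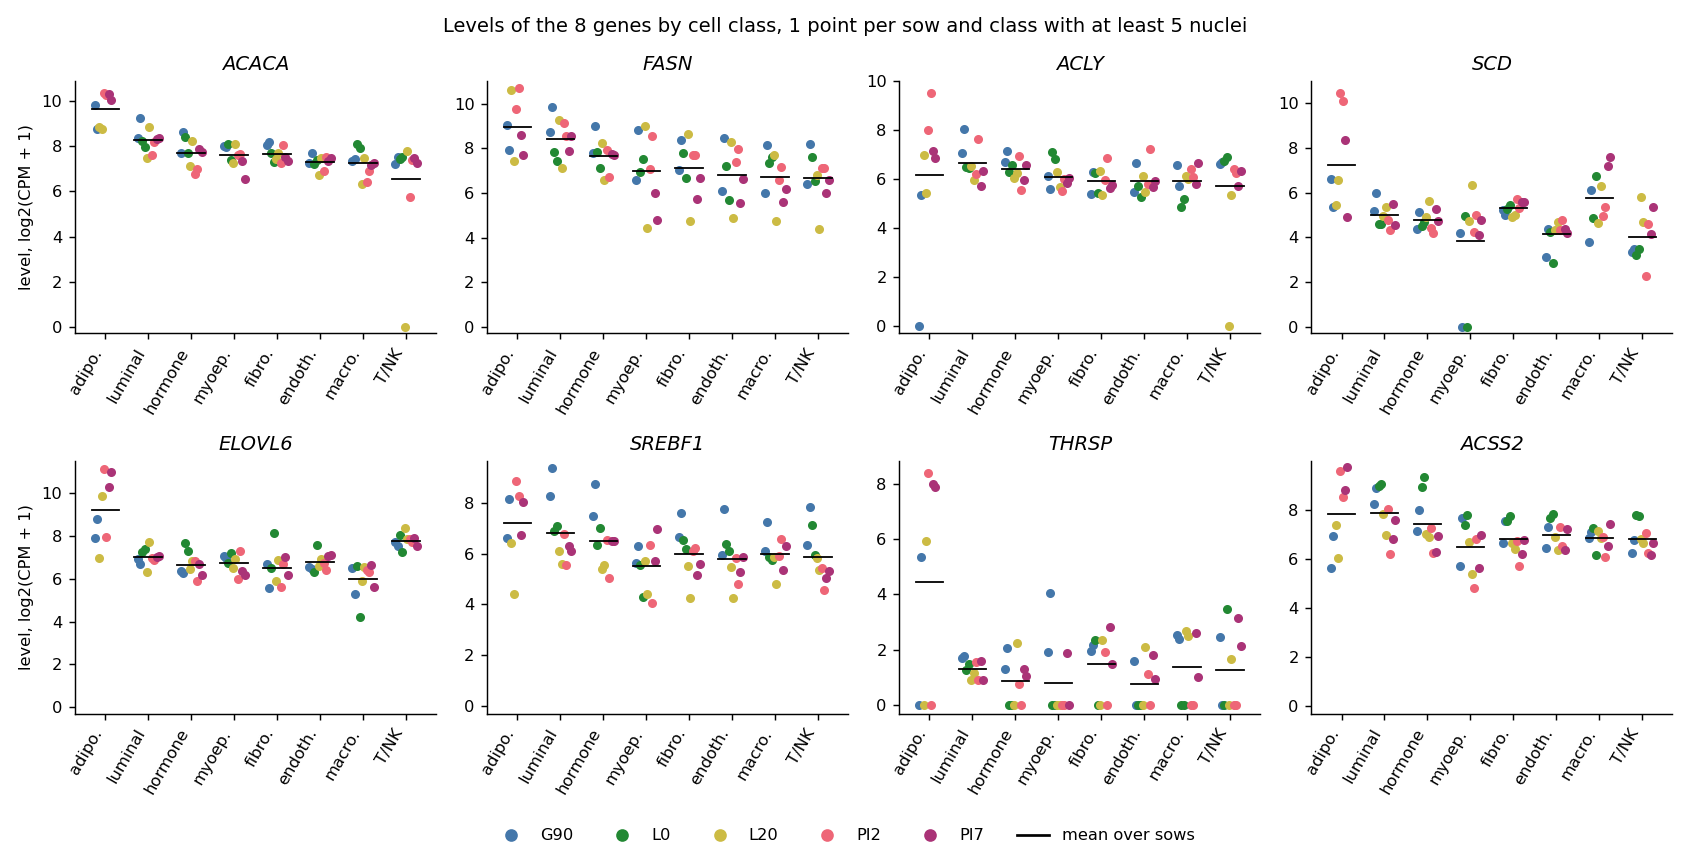
Level of each gene, as log2(CPM + 1) of the summed nuclei, by cell class (adipocyte, luminal, hormone-sensing luminal, myoepithelial, fibroblast, endothelial, macrophage, T or NK lymphocyte); each point is 1 sow with at least 5 nuclei of the class, coloured by stage, and the bar is the mean over sows of the plotted log values. The highest THRSP points are those of adipocytes, other classes holding many points at 0, and adipocyte points spread the most.

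The shares of nuclei with a UMI gave the same order as the CPM after each nucleus was thinned to 1000 UMIs, which removes differences in depth (shallower nuclei were left out: 561 of the 653 adipocyte nuclei outside the L0 glands, 65254 of 72018 luminal and 1685 of 3068 T or NK nuclei remained). For ELOVL6 the thinned share was 52.6% in adipocyte and 10.4% in luminal nuclei (49.5% and 21.9% unthinned), against 17.3% in T or NK lymphocytes (17.8% unthinned). For THRSP it was 10.5% in adipocyte and 0.13% in luminal nuclei (15.4% and 0.401% unthinned), against 0.182% in T or NK lymphocytes (0.319% unthinned). The median number of UMIs per nucleus, taken over sows, was 1408 in adipocyte, 2338 in luminal and 987.5 in T or NK nuclei.

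Adipocyte against luminal nuclei of the same sow is the main comparison. THRSP, ELOVL6 and SCD were higher in adipocyte nuclei, and FASN, ACLY, ACSS2 and SREBF1 showed no called difference. ACACA was higher by less than the fold limit under the main scaling (TMM), and passed it with RLE scaling or library totals. The tests used edgeR's quasi-likelihood fit on sums per sow and class with the sow as a block (8 sows), and a gene was called at a Benjamini-Hochberg adjusted p under 0.05 with a log2 fold change over 1 in either direction. In all, 3121 of 16263 genes were called (19.2%), 1045 of them higher (6.43%) and 2076 lower (12.8%) in adipocytes, so 3 called genes of 8, all higher, stand beside 6.43% in that direction. On simulated data this fit made 70 false calls among 226, more than its threshold allows and mostly among genes of low level. Over a mean of 20 CPM 12 of 123 calls were false, against 5 of 119 with RLE scaling or library totals. The median log2 fold change of all genes was -0.40, and that of the 8 members was 0.51.

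Of the steps that end the chain, ELOVL6 was higher in adipocyte nuclei of 8 of 8 sows. Its adipocyte levels were 242 and 442 CPM in the G90 glands, 126 and 939 CPM at L20, 2270 and 246 CPM at PI2 and 1238 and 2015 CPM at PI7. In luminal nuclei of these glands it stayed between 79 and 196 CPM, so the 2 classes overlapped only through the L20 gland 1 value of 3 UMIs. The log2 fold change was 2.05 (SE 0.40, adjusted p = 0.000192), or 2.45 relative to the median gene, and it was 1.84 without L20 gland 2.

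SCD, the desaturase, was higher in adipocyte nuclei of 7 of 8 sows, and the highest values were those of involuting glands. Adipocyte levels were 96.9 and 40.2 CPM at G90, 41.9 and 93.7 CPM at L20, 1411 and 1107 CPM at PI2, and 324 and 29.2 CPM at PI7. Luminal levels of the same sows ran from 18.8 to 61.1 CPM, and counting intervals of the 2 classes were apart in 4 sows. The log2 fold change was 2.19 (SE 0.56, adjusted p = 0.00424). The call was lost without PI2 gland 1 (1.56, adjusted p = 0.0503), and the change was 1.53 without PI2 gland 2 (adjusted p = 0.0150), the gland with 10 adipocyte nuclei and the highest free RNA share; of its 18 SCD UMIs 1 lay in the nucleus that held most of the milk protein RNA. The call was also lost with no filter on low counts (1.76, adjusted p = 0.123), and the value was 2.25 without L20 gland 2.

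THRSP had the largest difference of the 8 genes. Its adipocyte levels were 0 and 40.2 CPM at G90, 0 and 60.3 CPM at L20, 333 and 0 CPM at PI2, and 255 and 234 CPM at PI7, against 0.83 to 2.4 CPM in luminal nuclei. The 3 glands at 0 had 10 to 14 adipocyte nuclei, and 0 UMIs there allowed up to 155 to 227 CPM (exact Poisson interval, 95%). Counting intervals lay above those of luminal nuclei in L20 gland 2 (128 UMIs), PI2 gland 1 (38 UMIs) and the PI7 glands (22 and 8 UMIs). The log2 fold change was 5.68 (SE 0.61, adjusted p = 3.90e-09), 5.56 without L20 gland 2, and between 5.19 and 6.01 with any 1 gland left out.

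ACACA, the carboxylase, was higher in adipocyte nuclei of 6 of 8 sows. Adipocyte levels were 920 and 442 CPM at G90, 461 and 437 CPM at L20, 1332 and 1230 CPM at PI2, and 1284 and 1080 CPM at PI7. Luminal levels were 318 and 614 CPM, 175 and 438 CPM, 186 and 285 CPM, and 301 and 325 CPM in the same order, so all 4 involuting glands were above any luminal value and the G90 and L20 glands were not all so. The log2 fold change was 0.91 (SE 0.33, adjusted p = 0.0447), under the fold limit. It passed both limits with RLE scaling (1.39, adjusted p = 0.00666), with DESeq2 (1.38, adjusted p = 0.00189), without G90 gland 2 (1.23) and with library totals as the only scaling (1.46, adjusted p = 0.00577; this scaling was chosen after seeing the data).

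The synthase FASN, the acetyl-CoA enzymes and SREBF1 had log2 fold changes near 0 under TMM, the main scaling of the sums. FASN in adipocyte nuclei ranged from 173 to 1660 CPM and in luminal nuclei of the same sows from 133 to 904 CPM, and its log2 fold change was -0.02 (SE 0.34). ACLY was at -0.05 (SE 0.44), ACSS2 at 0.11 (SE 0.44) and SREBF1 at -0.04 (SE 0.44). These errors leave room for differences of about the size of the fold limit in either direction. Their sign turned with the scaling: FASN, ACLY and SREBF1 were at 0.44, 0.39 and 0.39 with RLE scaling, under which the median gene was at -0.13 and not -0.40. On simulated data the median gene was at -0.32 with TMM, -0.06 with RLE and -0.08 with library totals. Values near 0 under TMM are therefore not read as level. The RLE scaling also moved the split of all called genes from 33.5% to 45.8% higher (2496 called, 15.3%), while THRSP, ELOVL6 and SCD were called under both.

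**Figure D2:**
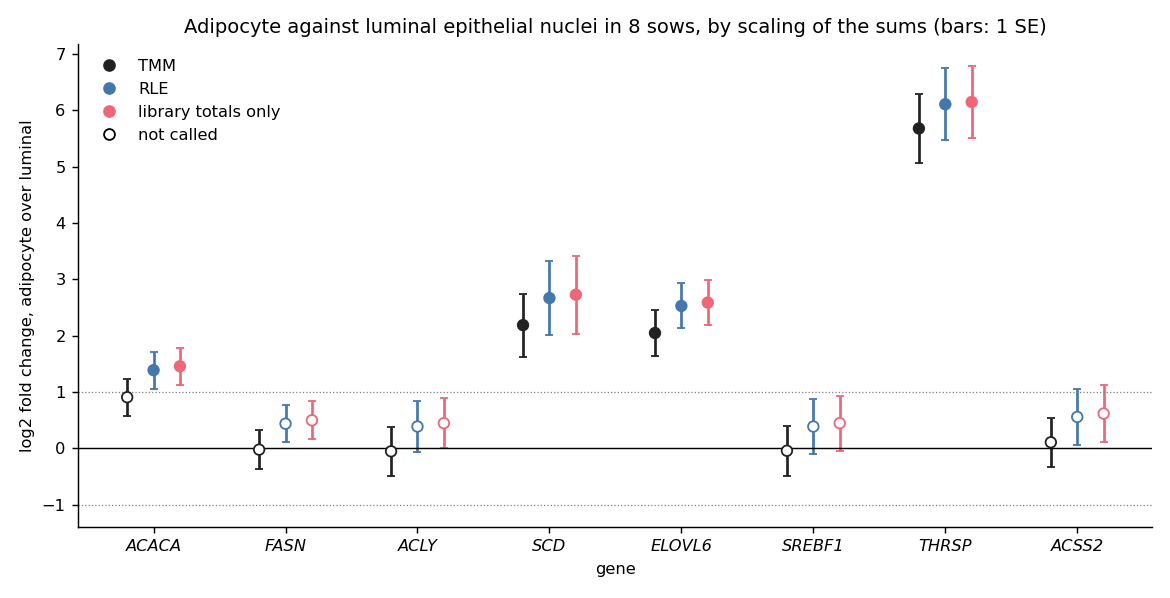
Log2 fold change of each gene in adipocyte over luminal epithelial nuclei of 8 sows with its standard error (bars), under 3 scalings of the sums; filled points passed the call and dotted lines mark the fold limit. THRSP, SCD and ELOVL6 were called under all 3, ACACA under RLE and library totals only, and the other 4 genes lay within 1 of no change.

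Neighbouring steps of lipid synthesis were taken as lists. Of 7 tested genes that supply carbon and NADPH, 4 were higher in adipocytes and 0 lower, beside 6.43% higher and 12.8% lower over all genes, among them ME1, the malic enzyme that makes NADPH (log2 fold change 4.43, adjusted p = 4.70e-10), MDH1 (1.41) and the citrate carrier SLC25A1 (1.24). Of 10 tested genes of chain building, elongation and desaturation, 2 were higher (ELOVL5, 2.63, among them) and 2 were lower (OLAH, the thioesterase that ends chains at medium length in mammary epithelium, -2.80, and HACD3, -1.66). Of 14 genes of acyl activation and glyceride synthesis, 5 were higher and 4 lower. DGAT2, which makes triacylglycerol (6.40), LPIN1 (3.79) and AGPAT1 (3.11) had the largest changes. Of 10 regulators of lipogenesis 1 was higher, MLXIPL, the carbohydrate response factor ChREBP (5.22, adjusted p = 8.49e-12). Median log2 fold changes of the 4 lists were 1.13, -0.17, -0.36 and -0.06 against -0.40 over all genes. Of the 4 milk protein genes 3 were lower, CSN3 by most (-6.00). The other called genes of these lists were named only after their values were seen: MPC2 (1.13), HSD17B12 (1.22), ACSL1 (2.68) and DGAT1 (1.61) were higher, and ACSL5 (-2.25), ACSL3 (-2.15), GPAM (-1.59) and LPIN2 (-1.48) were lower.

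Within luminal nuclei, 2123 hormone-sensing nuclei (at least 2 of ESR1, PGR, FOXA1, TBX3 and AREG with a UMI) were compared with the other luminal nuclei of the same 10 sows. All 8 genes had a negative log2 fold change in hormone-sensing nuclei, and 0 were called. In the same test 1321 of 16866 genes were called (7.83%), with 3.81% higher and 4.02% lower, and the median gene was at -0.25. FASN was at -0.83 (SE 0.16, adjusted p = 0.000649), ACACA at -0.61 (SE 0.13, adjusted p = 0.00145), ACSS2 at -0.54 (SE 0.14, adjusted p = 0.00900) and ELOVL6 at -0.42 (SE 0.14, adjusted p = 0.0298), all inside the fold limit. FASN averaged 225 ± 117 CPM in hormone-sensing and 401 ± 239 CPM in other luminal nuclei (SD, n = 10), and the hormone-sensing nuclei were the lower ones in 9 of 10 sows, with counting intervals apart in 7. With no UMI allowed for any marker of another class, FASN alone passed both limits (-1.08). The gate counts markers, and the median number of UMIs was 4152 in hormone-sensing and 2310 in other luminal nuclei. Of the same lists, SCD5 (1.38) and HACD3 (1.03) were higher and DGAT2 was lower (-1.22), as was 1 of the 4 milk protein genes, LALBA (-1.26). RLE scaling changed the split of called genes from 48.7% to 64.1% higher.

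Over the 5 stages, none of the 8 genes was called in luminal nuclei in any of the 4 steps between neighbouring stages or in lactation against the other stages (edgeR, 19938 genes in 1 fit over 10 glands). The genome-wide counts were as low: 1 gene (0.00502%) for L0 against G90, 0 genes (0%) for each later step, and 2 genes (0.0100%) for lactation. Without adjustment, 2236, 2585, 636 and 532 genes had p under 0.05 in the 4 steps and 1862 in lactation, and DESeq2 called 788, 912, 7, 13 and 317 genes with none of the 8 among them. On simulated data of L0 against G90 this fit recovered 11.4% of the changes put in at a log2 of 2 and 47.8% of those at 3. So 2 sows a stage leave sizeable changes undetected. No gene of the other lists was called by edgeR in these 5 comparisons.

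SREBF1 and ACSS2, the 2 genes with the largest differences between stages, were followed by gland. SREBF1 was at 296 and 654 CPM in the luminal nuclei of the G90 glands, 117 and 136 CPM at L0, 66.1 and 46.8 CPM at L20, 107 and 45 CPM at PI2, and 80.5 and 69.7 CPM at PI7. Both G90 glands were above all 8 others, and its log2 fold change was -1.64 from G90 to L0 (SE 0.59, unadjusted p = 0.0190, adjusted p = 0.319) and -1.54 from L0 to L20 (SE 0.59, unadjusted p = 0.0254, adjusted p = 0.308). ACSS2 was at 288 and 474 CPM at G90, 503 and 528 CPM at L0, 223 and 123 CPM at L20, 251 and 73.1 CPM at PI2, and 105 and 185 CPM at PI7. The 4 glands of G90 and L0 were above all 6 later ones, and the L20 against L0 change was -1.92 (SE 0.68, unadjusted p = 0.0173, adjusted p = 0.271). ELOVL6 was at 119 and 101 CPM at G90 and at 154 and 169 CPM at L0 (log2 fold change 0.92, SE 0.40, unadjusted p = 0.0426, adjusted p = 0.422). None of these 3 passes the adjusted threshold.

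FASN showed how far sows of a stage can differ. Its luminal level was 401 and 904 CPM at G90, 225 and 169 CPM at L0, 601 and 133 CPM at L20, 535 and 367 CPM at PI2, and 229 and 363 CPM at PI7, so the 2 L20 glands were the lowest of all and the highest after G90 gland 2. ACACA and ACLY were highest in G90 gland 2 (614 and 261 CPM), and SCD was too (61.1 CPM). Without that gland the L0 against G90 values of ACACA, ACLY, SCD and THRSP changed sign (to 0.39, 0.03, 0.05 and 0.12), and that of SREBF1 shrank to -0.63. THRSP rested on 10 to 119 UMIs per gland and stayed between 0.83 and 2.4 CPM.

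**Figure D3:**
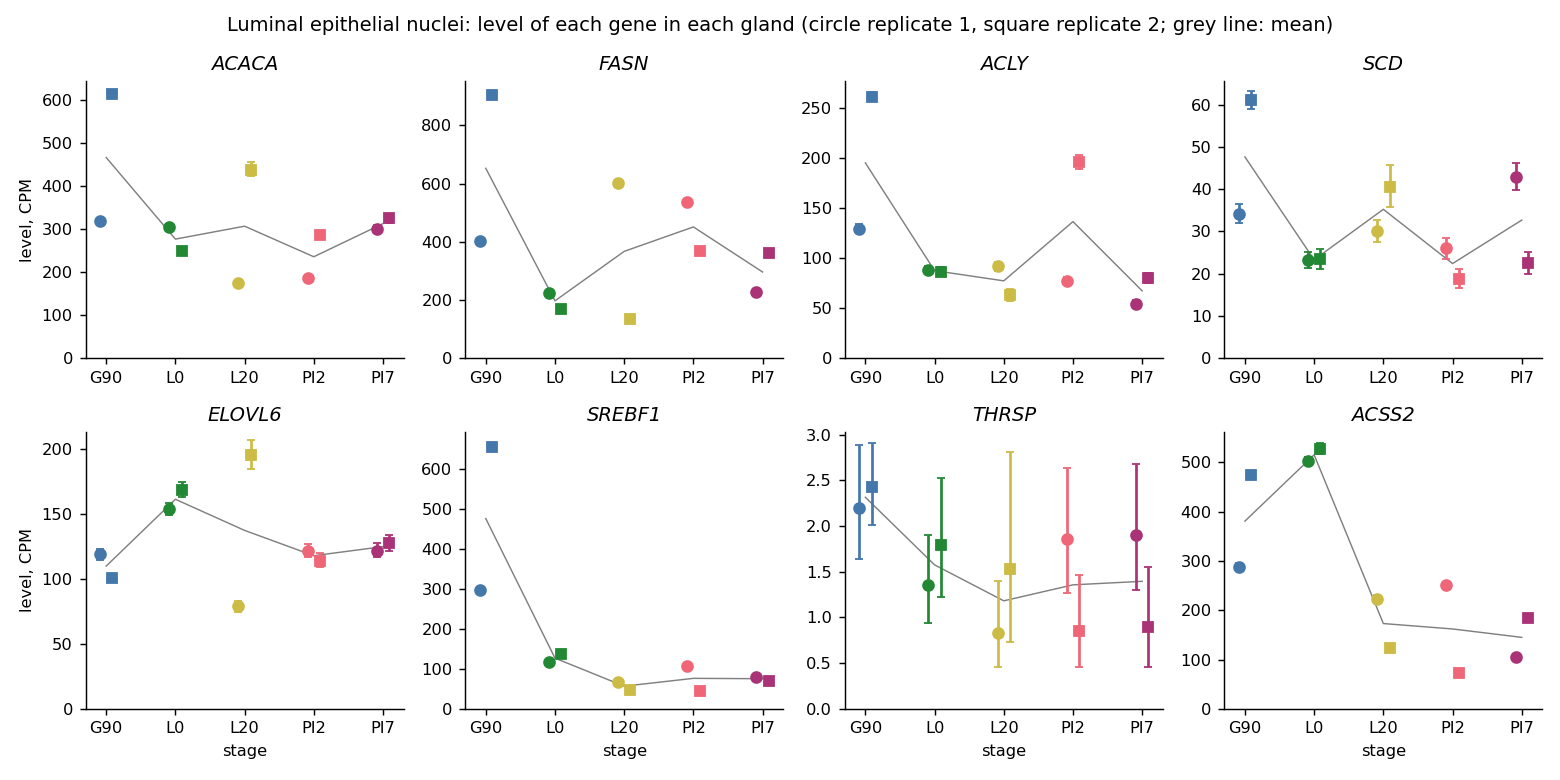
Level in CPM of each gene in luminal epithelial nuclei of each gland by stage (circle replicate 1, square replicate 2), with the exact 95% Poisson interval, which covers counting error only, and a grey line through stage means; each panel has its own scale from 0. SREBF1 was highest in both G90 glands, ACSS2 was high at G90 and L0, and FASN differed within L20 as much as between stages.

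In adipocyte nuclei, lactation could be set against the other stages only through the 2 L20 glands. Of 785 genes with enough UMIs, 1 was called (0.127%), and 5 of the 8 genes were tested and 0 called: ACSS2 at -1.67, SCD at -1.66, ACACA at -1.09, ELOVL6 at -0.66 and FASN at 0.85, with SEs of 0.68 to 0.85. The sign of FASN rested on L20 gland 1 (1551 CPM from 37 UMIs, against 173 CPM in L20 gland 2), and its value was -1.48 without that gland and 1.75 without L20 gland 2. That of ELOVL6 ran from -2.64 without L20 gland 2 to 0.22 without PI2 gland 1. ACLY, SREBF1 and THRSP had too few UMIs. Without adjustment 72 genes had p under 0.05, none of the 5 among them. The difference between the classes in their lactation change was tested as an interaction in 16263 genes, with 0 called by edgeR (0%), 1018 with an unadjusted p under 0.05 and 2 called by DESeq2. SCD (-1.66, SE 0.90, adjusted p = 0.816), ACSS2 (-1.36, SE 0.81, adjusted p = 0.853) and FASN (0.90, SE 0.69, adjusted p = 0.893) had the largest values besides SREBF1 (-1.05, SE 0.90, adjusted p = 0.901).

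The tissue sections gave the same genes in place, with each spot covering several cells. The 10% of spots with the highest share of adipocyte marker UMIs were set against spots rich in neither adipocyte nor luminal markers: 437 against 3811 spots at G90 and 220 against 1803 at PI2, after leaving out 36 and 5 spots rich in both. THRSP was 34.3 times as high in adipose-marker-rich spots at G90 (39.8 against 1.16 CPM, exact 95% interval of the ratio 22.1 to 53.3) and 23.2 times at PI2 (13.9 against 0.602 CPM, 9.35 to 60.7). ELOVL6 was 2.47 times as high at G90 (1.83 to 3.28) and 2.91 times at PI2 (2.03 to 4.08). SCD was 1.28 times as high at G90 (1.07 to 1.52) and 2.29 times at PI2 (1.8 to 2.88). These 3 genes are the ones that were called in nuclei. With the top 5% of spots the PI2 ratios were larger: 42.5 for THRSP (17 to 105), 5.65 for ELOVL6 (3.67 to 8.38) and 3.55 for SCD (2.57 to 4.8). Over all 4721 spots of the G90 section, where spots share depth and most hold no UMI of a gene, the level of SCD had a Spearman's rho of -0.0575 with the level of adipocyte markers and 0.102 with that of luminal markers. In the same order ELOVL6 had -0.0112 and 0.0565, and THRSP 0.125 and -0.0459. Over the 2248 spots of the PI2 section the values were 0.11 and 0.0434 for SCD, 0.120 and 0.0643 for ELOVL6 and 0.127 and -0.0494 for THRSP, and FASN (0.101 and 0.302) and SREBF1 (0.0779 and 0.239) were positive with both marker lists.

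Against the same reference spots, FASN and SREBF1 were lower in both sections and the other 3 genes were mixed. FASN had a ratio of 0.616 at G90 (0.576 to 0.659) and 0.769 at PI2 (0.720 to 0.821), and SREBF1 0.719 (0.640 to 0.805) and 0.789 (0.659 to 0.937). ACLY was lower at G90 (0.547, 0.416 to 0.708) but its interval held 1 at PI2, and ACACA's interval held 1 in both sections (1.23, 0.898 to 1.65 at G90 and 0.959, 0.607 to 1.45 at PI2). With the top 5% of spots the G90 ratio of ACACA was 1.59 (1.03 to 2.33), and against the 10% of spots richest in luminal markers it was 1.58 (1.09 to 2.26) at G90 and 1.4 (0.790 to 2.44) at PI2. ACSS2 was at 0.737 (0.593 to 0.905) at G90 and 1.2 (0.898 to 1.58) at PI2. Against those luminal-marker-rich spots the ratios of FASN were 0.657 (0.610 to 0.706) at G90 and 1.13 (1.04 to 1.22) at PI2, so the order of FASN in the PI2 section depended on the reference spots. Those of SREBF1 were 0.906 (0.796 to 1.03) and 1.06 (0.855 to 1.32), with intervals that held 1 in both sections. Adipose-marker-rich spots were shallower (median 1916 UMIs against 8991 in the reference spots at G90, and 3460 against 6323 at PI2) and still held epithelial RNA (EPCAM at 0.777 and 0.688 of the reference), and the part of either in the ratios was not tested.

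**Figure D4:**
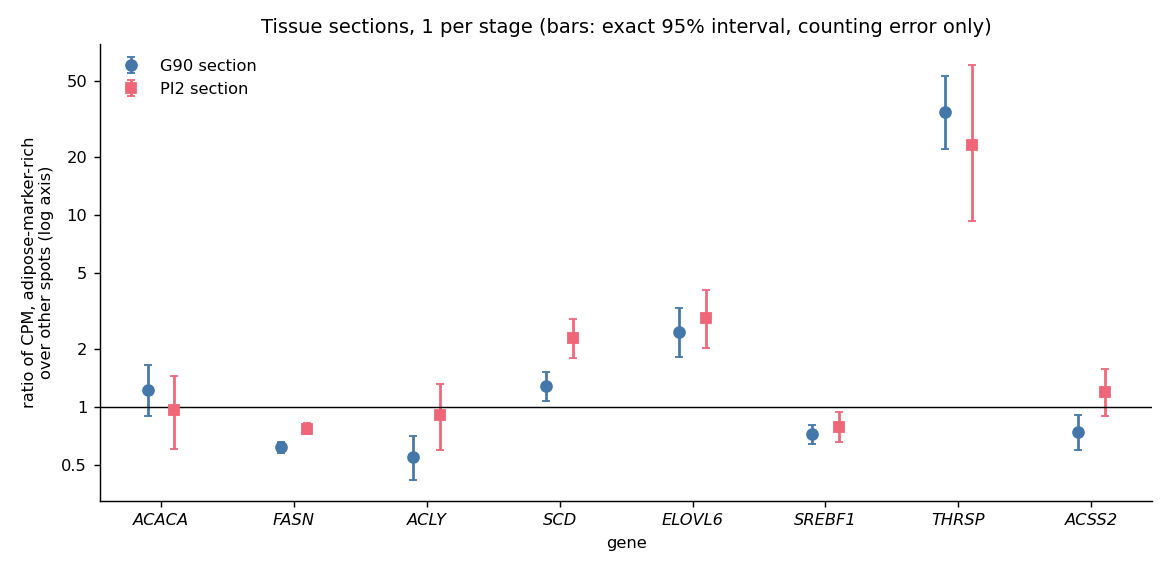
Ratio of CPM in adipose-marker-rich spots to that in other spots (log axis) for each gene in the G90 and the PI2 section, with the exact 95% interval, which covers counting error only. THRSP, ELOVL6 and SCD lie above 1 in both sections, and FASN and SREBF1 lie below 1 in both.

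Over whole sections, FASN was at 1266 CPM at G90 and 1192 CPM at PI2. SREBF1 was at 378 and 165 CPM, ACSS2 at 111 and 48.1 CPM, ACLY at 95.2 and 32 CPM and SCD at 98.9 and 37.3 CPM. With 1 section a stage these pairs compare 2 sections and not the stages. In luminal nuclei SREBF1, ACSS2, ACLY and SCD also had higher stage means at G90 (475, 381, 195 and 47.6 CPM) than at PI2 (75.7, 162, 136 and 22.4 CPM), and the glands of the 2 stages overlapped for ACLY but not for the other 3. FASN differed little between the sections, and its luminal levels overlapped between the glands of the 2 stages. ACACA, ELOVL6 and THRSP are not set side by side here.

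Milk held shed epithelial cells: 3089 of the L0 library and 1177 of the L20 library passed the luminal gate. SCD (908 and 960 CPM at L0 and L20) and FASN (437 and 300 CPM) were well above T or NK cells of the same milk (54.6 and 9.37 CPM for SCD, 33.5 and 12.6 CPM for FASN). ACLY (219 and 123 CPM), ACSS2 (153 and 124 CPM), SREBF1 (120 and 44.2 CPM) and ACACA (67.1 and 54.5 CPM) were above them too. THRSP was at 25.5 and 50.8 CPM, against 1.76 and 0.937 CPM in T or NK cells, from 1 and 2 UMIs there. Its ratio to T or NK cells was 14.5 at L0 (exact 95% interval 2.59 to 572) and 54.2 at L20 (14.9 to 449). These T or NK cells also held RNA of the milk protein CSN2, at 5011 CPM at L0 and 859 CPM at L20. In luminal cells CSN2 was at 125074 and 143265 CPM. The part of free RNA in the T or NK levels was not tested. ELOVL6, at 34.5 and 27.2 CPM, was not told apart from T or NK cells in either milk (ratio 0.725, exact 95% interval 0.497 to 1.1, and 1.16, 0.855 to 1.60). Against neutrophils (ratio 3.67, 3.07 to 4.41 at L0 and 7.64, 5.36 to 11.2 at L20) and macrophages (4.18, 2.84 to 6.41 and 4.69, 3.56 to 6.25) of the same milk it was higher in luminal cells.

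Between the 2 milks, 6 of the 8 genes had a lower level in epithelial cells of the L20 library and THRSP and SCD a higher one. The ratio of L20 to L0 was 0.369 for SREBF1 (0.334 to 0.407), 0.564 for ACLY (0.531 to 0.598), 0.686 for FASN (0.66 to 0.713), 0.789 for ELOVL6 (0.691 to 0.897), 0.811 for ACSS2 (0.763 to 0.861) and 0.812 for ACACA (0.740 to 0.889). It was 1.06 for SCD (1.03 to 1.08) and 1.99 for THRSP (1.79 to 2.21). The intervals cover counting error only, and each milk is 1 library. For SCD and THRSP the shares of cells with a UMI went against these levels. SCD had a UMI in 83.7% of L0 and 27.9% of L20 luminal cells at a median depth of 16896 and 2744 UMIs, and in 42.3% and 15.8% after thinning to 1000 UMIs, although its CPM was nearly equal. For THRSP, whose CPM was higher at L20, the thinned shares were 2.01% and 1.71%. No order of the milks is read from these shares. The thinned share was lower at L20 for all 8 genes, FASN (32.4% and 11.6%) and SREBF1 (10.2% and 1.53%) among them. It therefore does not separate the genes by the direction of their level. The luminal gates of the 2 milks also differed in milk protein RNA. LALBA had a UMI in 98.7% of L0 and 64.7% of L20 luminal cells (94.6% and 57.1% thinned), and CSN2 in 100% and 87.2%. The ratios compare the summed cells of these gates, which may differ in their mix of cells.

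**Figure D5:**
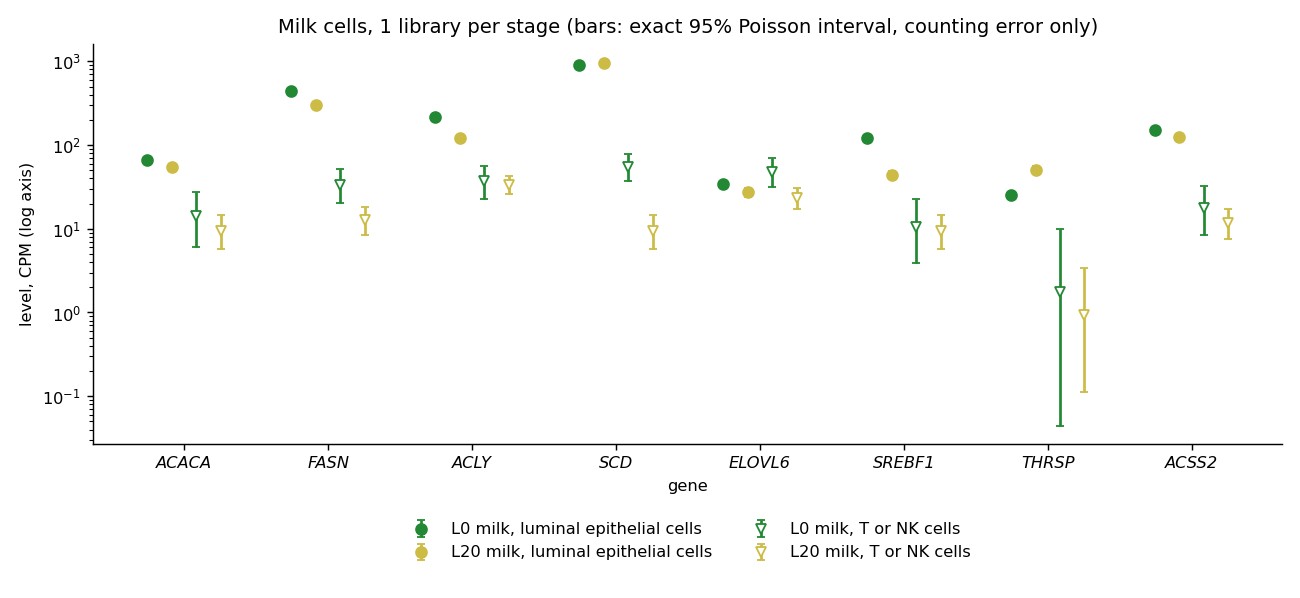
Level in CPM (log axis) of each gene in luminal epithelial cells (filled circles) and in T or NK cells (open triangles) of the L0 and the L20 milk library, with the exact 95% Poisson interval. Luminal cells lie above T or NK cells for 7 genes, and ELOVL6 is the exception.

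Milk cells and nuclei differ in material (whole cells against nuclei), and the sources used here do not tie the milk to the sows of the glands, so their levels are only set side by side. THRSP was at 1.56 CPM in luminal nuclei on average and at 25.5 to 50.8 CPM in milk epithelial cells, and SCD at 32.3 CPM in nuclei and 908 to 960 CPM in milk. ACACA ran the other way, with 319 CPM in nuclei and 54.5 to 67.1 CPM in milk epithelial cells. SREBF1 was lower at L20 than at L0 in both materials: 66.1 and 46.8 CPM against 117 and 136 CPM in nuclei, and 44.2 against 120 CPM in milk.

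The genes whose level followed each member most closely were taken over 69 sums of sow and class with at least 20 nuclei (9 classes), as Pearson's r of log2(CPM + 1). For THRSP these were LGALS12 (r = 0.780), RDH5 (0.737) and ZSWIM2 (0.736), and for ELOVL6 LPIN1 (0.659), LGALS12 (0.633) and PPP2R1B (0.597). For ACACA they were NFX1 (0.856), DLG1 and HSD17B4, for FASN PABPN1 (0.757), CRACR2B and AKAP8L, for ACLY GNL2 (0.849), ZNHIT6 and SENP3, for SCD PFKFB3, GPI and IDS, for SREBF1 PKNOX1 (0.763), TYK2 and IRX1, and for ACSS2 CPEB4 (0.641), CLINT1 and STAT5B. None of these lists held another of the 8 genes. Among the members the closest pairs were ACACA with ACLY (r = 0.59), FASN with SREBF1 (0.52), ELOVL6 with THRSP (0.49) and FASN with ACSS2 (0.48). Adipocyte nuclei entered these sums only through L20 gland 2, PI2 gland 1 and PI7 gland 1 (526, 28 and 37 nuclei). Their part in the values of THRSP and ELOVL6 was not tested. The sums share libraries, depth and free RNA, so these values are a description.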

How the data were processed

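Nuclei and milk cells were profiled with GEXSCOPE libraries, and the authors counted UMIs per gene with CeleScope on Sscrofa11.1. Visium sections were counted with Space Ranger (1.2.0 in the submitters' notes; the header of the deposited counts names another version). The deposited values are raw UMI counts without normalization, and its annotation release was not given in the sources used here. Nuclei were kept with 300 genes or more and no more than 25% of UMIs from mitochondrial genes. No doublet or free RNA removal was applied, so doublets remain in the gates, which are marker rules and not clusters.

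Counts were summed per sow and class (at least 5 nuclei) and tested with edgeR 4.0.16 (quasi-likelihood, TMM, filterByExpr, Benjamini-Hochberg), with gate markers left out and the sow as a block between classes. DESeq2 1.42.0 was an alternative. The 8 genes were always named, with up to 3 called genes of each list, the milk proteins and 3 like genes per member. Genes and lists were chosen with earlier results of these data known. p-values measure the spread between sows. Counting intervals (95%) cover counting error only, since sections and milk had 1 library a stage. The fits were tested on simulated data, and the limits this showed stand beside the counts they touch. Shares, class means and free RNA without a single gland or nucleus were computed after seeing the data.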

Additional observations from a re-analysis of the deposited data

Results flagged for a closer look

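A gland was set apart where its gap to the nearest other gland, over the whole range of the group, passed Dixon's 95% limit. Of 24 groups tested 2 passed, and chance gives about 1 in 20. ACACA in luminal nuclei of the 6 glands outside lactation was highest in G90 gland 2, at 614 CPM against 325 CPM in the nearest gland (ratio of gap to range 0.676). ACLY in adipocyte nuclei of the same 6 glands was highest in PI2 gland 2, at 738 CPM against 254 CPM (0.656); this value rests on 12 UMIs of 10 nuclei. The free RNA share of that gland was 89.6%, and 31.9% without the 1 nucleus that held 10 of its 15 milk protein UMIs; that nucleus held 0 of the 12 ACLY UMIs. The lactation change, which in adipocytes rests on the L20 glands only, was called different between adipocyte and luminal nuclei in 0 of 8 tests of members. Over all genes 0 of 16263 were called in that test, so the count tells nothing particular of the members.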

How the results depend on the processing

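Across 1596 values recomputed under the alternatives, 1430 kept their direction and side of the threshold, 75 changed sign, 2 lost and 8 gained a call, and 81 moved; of 37 values under library totals, added after the data were seen, 31 kept theirs. For adipocyte against luminal nuclei 2 to 4 members and 2608 to 3422 genes were called with 1 gland left out, and 4760 genes at an unadjusted p with the same fold limit. The values near 0 turned: under RLE scaling, DESeq2 and library totals FASN was 0.44, 0.41 and 0.50, ACLY 0.39, 0.28 and 0.45, and SREBF1 0.39, 0.41 and 0.45; with at least 15 adipocyte nuclei they were 0.46, 0.64 and 0.30; with at least 3 markers ACLY was 0.04 and SREBF1 0.03. ACSS2 was -0.31 with no filter on low counts, -0.05 with stricter nuclei and -0.21 with free RNA taken out. With 1 gland left out FASN ran from -0.39 to 0.32, ACLY from -0.40 to 0.30, SREBF1 from -0.45 to 0.32 and ACSS2 from -0.40 to 0.49.

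For hormone-sensing nuclei 284 genes and 1 member were called with no marker of another class, 762 with stricter nuclei, 367 without the sow block, and 870 to 1207 with 1 gland left out. For L0 against G90 the gene counts were 2135 (1 member) at an unadjusted p, 234 with no filter, 788 with DESeq2, 21 with no marker of another class, 3 with stricter nuclei, 907 with the glands of those 2 stages only and 0 to 120 with 1 gland left out. For L20 against L0 they were 2505 (2 members), 311 with no filter, 912 with DESeq2, 2 with those stages only and 0 to 70 with 1 gland left out. For the later steps they were 611 and 526 at an unadjusted p and 7 and 13 with DESeq2. Lactation in luminal nuclei gave 1058, 85 with no filter, 317 with DESeq2, 1 with no marker of another class and 0 to 12; in adipocytes 72, 5 with no filter, 18 with at least 3 markers, 0 with stricter nuclei, 5 with free RNA taken out, 0 with library totals and 1 to 35. The interaction gave 1017, 31 with RLE, 1 with no filter, 2 with DESeq2, 17 with at least 3 markers, 44 with library totals, 46 with at least 15 nuclei and 0 to 3.

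Small stage values turned too: SCD was -0.42, 0.17 and -0.23 for the last 3 steps with no marker of another class, and ELOVL6 for PI2 against L20 was -0.06, -0.05, -0.02, -0.28, -0.01 and -0.01 with RLE, DESeq2, at least 3 markers, no marker of another class, stricter nuclei and those stages only. ELOVL6 in adipocytes for lactation was 0.07 with no filter. With the top 5% of spots the section ratios were 1.56 (SCD) and 3.62 (ELOVL6) at G90 and 0.681 (FASN), 3.55 (SCD), 5.65 (ELOVL6) and 42.5 (THRSP) at PI2, and SCD in L20 milk was 991 CPM with at least 3 markers. In each of these the cause was not tested.

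With 1 gland left out, L0 against G90 ran from -1.03 to 0.39 for ACACA, -1.45 to 0.03 for ACLY, -1.26 to 0.05 for SCD and -0.49 to 0.12 for THRSP, and L20 against L0 from -1.27 to 1.43 for FASN. PI2 against L20 ran from -0.73 to 0.36 (ACACA), -0.52 to 2.19 (FASN), -0.16 to 1.60 (ACLY), -0.29 to 0.49 (ELOVL6), -0.13 to 1.1 (SREBF1), -0.13 to 0.63 (THRSP) and -1.07 to 0.78 (ACSS2), and PI7 against PI2 from -0.21 to 0.66 (ACACA), -0.10 to 0.55 (SCD), -0.60 to 0.38 (SREBF1), -0.70 to 0.32 (THRSP) and -0.98 to 0.68 (ACSS2). Lactation ran in luminal nuclei from -0.31 to 0.21 (ACACA), -0.21 to 0.22 (SCD) and -0.23 to 0.06 (THRSP), and in adipocytes from -1.48 to 1.75 (FASN) and -2.64 to 0.22 (ELOVL6). The interaction of ELOVL6 ran from -2.52 to 0.37.

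Replicate numbers share only a number: same-numbered glands correlated between -0.45 and 0.31, and with the replicate block 0 genes were called for L0 against G90 and for lactation in both classes. No marker of another class could not be fitted for adipocytes, nor at least 15 nuclei for their lactation change. Adipocyte sums of 10 to 37 nuclei limit 7 of 8 sows, and 2 sows a stage limit every stage comparison.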
